A study of Mus musculus with 6 samples.

Results

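The 10 genes described here encode sensors of foreign or misplaced nucleic acid, with the adaptor and kinases that relay their signal towards interferon genes. They were taken by symbol from a deposited count table of 54532 genes, and each symbol had 1 entry. The 10 were Ddx58, Ifih1, Dhx58, Zbp1, Mavs, Tbk1, Ikbke, Tlr3, Tlr7 and Tlr9. CD4+ T cells purified from spleens of C57BL/6 mice were held for 72 h in Th1-polarising conditions, either alone (control) or with idelalisib, a drug that blocks the delta form of phosphoinositide 3-kinase. Each group had 3 libraries, called biological replicates in the labels, which do not say whether they came from separate mice, so p-values reflect how far these cultures vary, and that variation may be technical. The labels give neither the drug dose nor a solvent for the control cultures. No transgene or deletion is named in the labels.

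RIG-I (Ddx58) and MDA5 (Ifih1) are helicases that bind viral RNA in the cytosol and engage the adaptor MAVS on mitochondria. LGP2 (Dhx58) belongs to the same family, lacks the signalling domains and adjusts the output of the others. MAVS recruits the kinases TBK1 and IKK epsilon (Ikbke), which phosphorylate interferon regulatory factors. Toll-like receptors 3, 7 and 9 read double-stranded RNA, single-stranded RNA and CpG DNA inside endosomes, and ZBP1 binds left-handed Z-form nucleic acid and can start cell death. Several of these sensor genes are themselves known targets of interferon.

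With idelalisib, the transcripts of the sensors ZBP1, MDA5, RIG-I and LGP2 were higher, by 5.62-, 4.32-, 1.75- and 1.40-fold. Tlr7 was also higher, at very low counts, and was tested only through its idelalisib libraries. Ikbke was lower, at 0.752 of the control level, and Mavs and Tbk1 did not pass the test. Of the 10 genes, 8 had enough counts to be tested, 5 of these rose, 1 fell and 2 did not pass. Without Tlr7, 4 of 7 tested genes rose and 1 fell. Over all 14530 genes tested, 44.6% were called by the quasi-likelihood test of edgeR (adjusted p below 0.05), 22.2% as higher and 22.4% as lower. Scaled by library size alone, 68.5% of calls over all genes were on the higher side against 49.7% with the TMM scaling (trimmed mean of M-values) used here, and the median log2 fold change moved from 0.01 to 0.16. In bulk RNA, fewer cells of a type and less RNA per cell cannot be told apart.

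Library totals ranged from 13372318 to 16770452 counts, so 1 CPM (counts scaled to a common TMM-adjusted total) stood for 14.0 to 16.7 reads. On the second principal component, with 11.9% of the variance, idelalisib replicate 2 lay away from the remaining libraries of its group. T cell markers were abundant in every library, with summed levels of 3550 to 3807 CPM in control and 3246 to 3883 CPM in idelalisib cultures, and Cd4 was at 554.0 ± 38.1 and 473.9 ± 53.1 CPM (SD, n = 3). Of the 2 CD8 T cell markers, Cd8a was called higher, at 1.82 ± 0.606 and 3.40 ± 1.27 CPM (log2 fold change 0.91; edgeR adjusted p = 0.0360), and Cd8b1 was at 4.22 ± 1.26 and 4.65 ± 0.374 CPM (edgeR adjusted p = 0.671).

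RefSeq sequences around the annotated start sites (build GRCm38.p6, 250 bases before to 50 after the start) were given for 7 of the 10 genes. They are shown here because Ddx58 and Ifih1 rose together, and interferon regulatory factors are known to act on such genes through sites built from the letters AANNGAAA. These letters and TTCNNNGAA, which STAT factors are known to bind, were chosen after the sequences had been seen, so matches in these genes are a description only. AANNGAAA, searched on both strands, occurred in 23.9% of the 32851 sequences of this length. Among sequences of tested genes it occurred in 20.6% for genes called higher, 18.1% for genes called lower and 16.5% for genes not called. Of the 7 genes it was present in Ifih1, Ddx58, Ikbke and Tlr3 and absent from this window in Mavs, Tbk1 and Tlr9. Ifih1 had a pair of overlapping matches, 29 to 36 and 35 to 42 bases after the start (chr2:62646206-62646235, minus strand). In Ddx58 one match, on the opposite strand of the gene, lay 3 to 10 bases after the start (chr4:40239804-40239833, minus strand), and the other 59 to 52 bases before it (chr4:40239865-40239894, minus strand). The matches are printed with their flanks in the direction of the gene, with the matched bases in capitals.
Ifih1: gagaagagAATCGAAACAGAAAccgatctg
Ddx58, across the start: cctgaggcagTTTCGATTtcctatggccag
Ddx58, before the start: ctaggttcagAAACGAAActggatccccgc

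The palindromic letters TTCNNNGAA occurred in 8.3% of all sequences and in none of the 7; a match can overlap one of AANNGAAA. The 150 bases before the start are given for Ddx58, which rose (chr4:40239826-40239975, minus strand), and for Ikbke, which fell (chr1:131279564-131279713, minus strand). Capitals again mark AANNGAAA, which Ikbke holds on the opposite strand, 132 to 125 bases before its start.
Ddx58: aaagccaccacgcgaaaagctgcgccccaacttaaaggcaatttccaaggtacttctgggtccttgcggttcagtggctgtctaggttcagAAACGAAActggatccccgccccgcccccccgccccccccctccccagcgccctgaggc
Ikbke: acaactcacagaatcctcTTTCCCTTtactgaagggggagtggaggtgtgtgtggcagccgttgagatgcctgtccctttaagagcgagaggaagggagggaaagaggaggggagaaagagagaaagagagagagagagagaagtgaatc

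Among the cytosolic RNA sensors, Ifih1 had the widest separation of groups. Ifih1 (ENSMUSG00000026896, mm10 chromosome 2, 62595798 to 62646255) was at 17.3, 20.1 and 16.7 CPM in control replicates 1, 2 and 3 and at 78.1, 86.3 and 69.8 CPM in idelalisib replicates 1, 2 and 3. The lowest idelalisib library was above every control library, with a log2 fold change of 2.11 with an SE of 0.11 (adjusted p = 1.21e-08, edgeR). Ddx58 (ENSMUSG00000040296, mm10 chromosome 4, 40203773 to 40239828) was at 27.4, 27.1 and 25.3 CPM in control and 48.9, 43.8 and 47.3 CPM in idelalisib cultures. Its groups did not overlap either, and its spread within groups was small beside the difference (log2 fold change 0.81 with an SE of 0.10; adjusted p = 1.54e-05, edgeR). Groups did not overlap in CPM for 54.6% of all genes tested.

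Dhx58 (ENSMUSG00000017830, mm10 chromosome 11, 100694884 to 100704271) changed least among the 3 helicases. It was at 35.5, 28.3 and 26.9 CPM in control and 45.7, 34.8 and 46.5 CPM in idelalisib cultures. The groups overlapped, because idelalisib replicate 2 lay just below control replicate 1. The log2 fold change was 0.49 (SE 0.13, edgeR adjusted p = 0.00849). Leaving out each library in turn kept the call, with an adjusted p of up to 0.0497. The antisense gene Dhx58os overlaps Dhx58 and held 34 counts over all libraries against 3334 for Dhx58.

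The balance of MDA5 to RIG-I transcripts, taken within each library, differed between groups. Per length, the ratio of Ifih1 to Ddx58 was 0.546, 0.642 and 0.571 in control and 1.38, 1.70 and 1.27 in idelalisib libraries. Ddx58 was therefore the more abundant of the pair in every control library and Ifih1 in every idelalisib library. The ratio of Dhx58 to Ddx58 was 2.44 ± 0.301 in control libraries and 1.95 ± 0.210 with idelalisib (SD, n = 3), with ranges that did not overlap. These ratios, and those to Ddx58 and Mavs given further on, were not tested and were chosen after the values were seen.

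Zbp1 (ENSMUSG00000027514, mm10 chromosome 2, 173206612 to 173218923) had the largest fold change of the 8 tested genes. It was at 19.9, 25.8 and 17.3 CPM in control and 123.6, 112.9 and 118.4 CPM in idelalisib libraries. All idelalisib libraries lay far above the control libraries (log2 fold change 2.49 with an SE of 0.12; adjusted p = 9.01e-09, edgeR). Relative to Ddx58 per length, Zbp1 stood at 1.57 ± 0.290 in control libraries and 5.07 ± 0.0771 with idelalisib (SD, n = 3).

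The adaptor Mavs (ENSMUSG00000037523, mm10 chromosome 2, 131234063 to 131248025) was at 36.1, 38.8 and 32.8 CPM in control and 39.0, 36.6 and 44.2 CPM in idelalisib cultures. The groups overlapped and the difference did not pass the test (log2 fold change 0.15 with an SE of 0.10; adjusted p = 0.245, edgeR). Scaled by library size alone, Mavs was called higher, at a log2 fold change of 0.31 (edgeR adjusted p = 0.0240). Relative to Mavs per length, Ddx58 went from 0.352 ± 0.0185 to 0.556 ± 0.0443 and Ifih1 from 0.206 ± 0.00843 to 0.811 ± 0.160 (SD, n = 3), in each case with no overlap between groups.

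The kinase gene Tbk1 (ENSMUSG00000020115, mm10 chromosome 10, 121546455 to 121586787) was at 62.6, 60.2 and 65.8 CPM in control and 56.1, 63.5 and 50.6 CPM in idelalisib cultures. Idelalisib replicate 2 fell among the control libraries, and the difference did not pass the test (log2 fold change -0.15 with an SE of 0.10; adjusted p = 0.223, edgeR). Without that library the log2 fold change was -0.23 and was called (edgeR adjusted p = 0.0364). Scaled by library size alone it was 0.01 (edgeR adjusted p = 0.966).

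Ikbke (ENSMUSG00000042349, mm10 chromosome 1, 131254343 to 131279606) encodes the related kinase IKK epsilon. It was at 239.6, 245.9 and 220.5 CPM in control and 208.5, 140.2 and 182.1 CPM in idelalisib cultures. All idelalisib libraries were below all control libraries, and replicate 2 was lowest (log2 fold change -0.41 with an SE of 0.12; adjusted p = 0.0131, edgeR). The call was lost without idelalisib replicate 3 (edgeR adjusted p = 0.0834) and when scaled by library size alone (log2 fold change -0.26, edgeR adjusted p = 0.0955). Without idelalisib replicate 2 the log2 fold change was -0.26, still called (edgeR adjusted p = 0.00842). The antisense genes Gm28913 and Gm28914 overlap Ikbke and held 555 and 51 counts over all libraries, against 18834 for Ikbke.

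The ratio of Ikbke to Tbk1 per length was 1.66, 1.77 and 1.45 in control and 1.61, 0.957 and 1.56 in idelalisib libraries. The ranges overlapped, and only idelalisib replicate 2 had less Ikbke than Tbk1 per length. In that library counts were 1980 for Ikbke and 897 for Tbk1, so this order rests on the deposited lengths of 9018 and 3910 bases. The difference in the mean log2 ratio was -0.28 (exact permutation test, two-sided p = 0.4, n = 3 per group, smallest p possible 0.1). Without idelalisib replicate 2 the difference was -0.03.

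**Figure D1:**
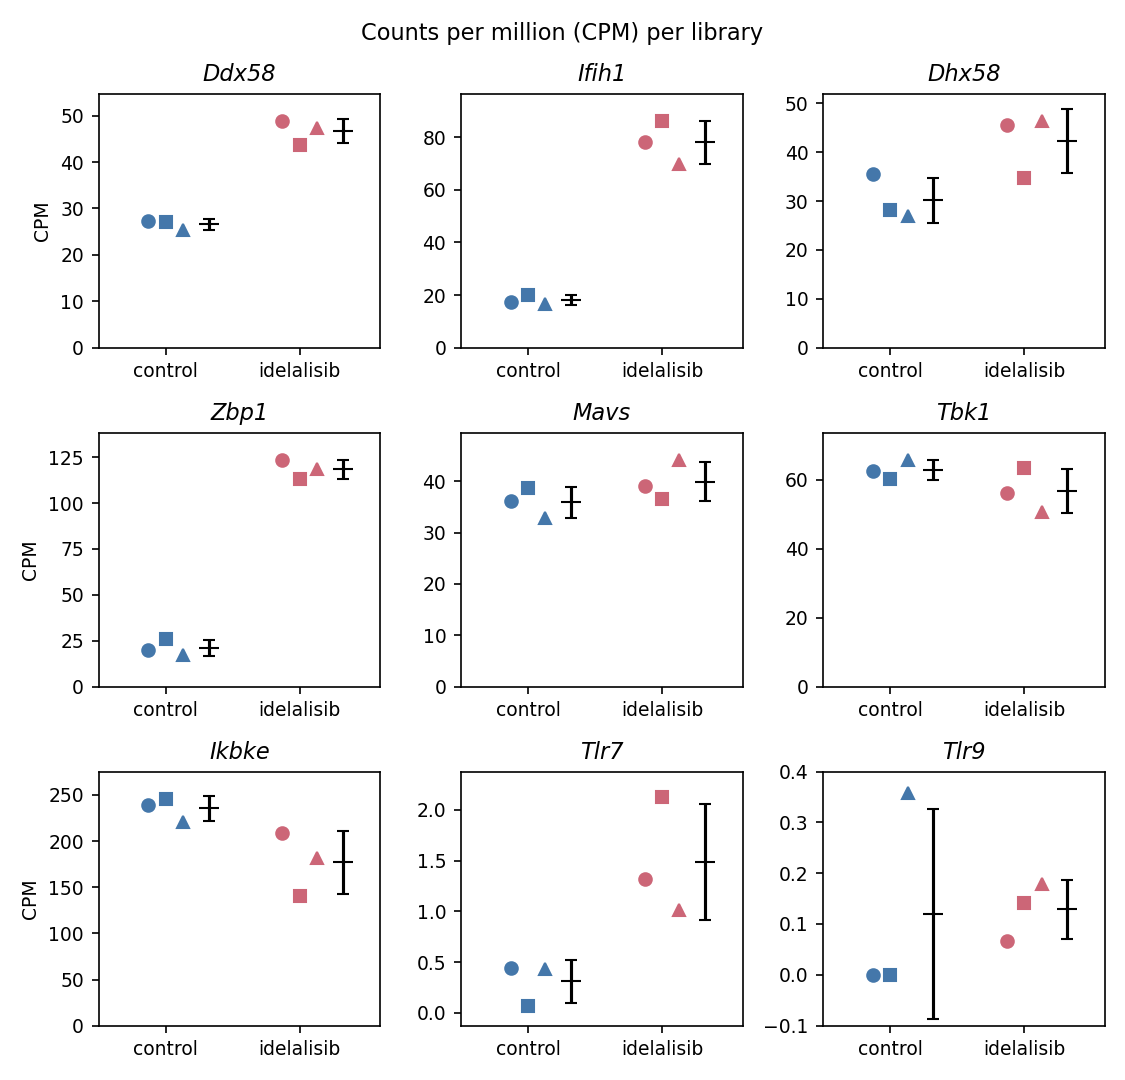
CPM (y axis, from about 0, TMM-scaled) of 9 genes in the 3 control (blue) and 3 idelalisib (red) libraries, with circles, squares and triangles for replicates 1, 2 and 3 and black bars for mean ± SD. Ddx58, Ifih1 and Zbp1 are higher and Ikbke is lower in every idelalisib library, while Dhx58, Mavs and Tbk1 overlap between groups.

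The endosomal receptors were near the limit of detection. Tlr7 (ENSMUSG00000044583, mm10 chromosome X, 167304929 to 167330558) had 7, 1 and 6 counts in control and 20, 30 and 17 counts in idelalisib cultures. Every idelalisib library had more counts than any control library (log2 fold change 2.22 with an SE of 0.54; adjusted p = 0.00448, edgeR). The ratio of the summed counts was 4.69, with an exact 95% counting interval of 2.61 to 9.03. Tlr7 passed the low-count filter only through its idelalisib libraries, so a difference was built into its being tested, and it is no support for the counts above. At 1.49 ± 0.573 CPM with idelalisib (SD, n = 3) its level per length was at percentile 7.94 of the tested genes.

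Tlr9 (ENSMUSG00000045322, mm10 chromosome 9, 106222598 to 106226883) had 0, 0 and 5 counts in control and 1, 2 and 3 counts in idelalisib cultures. It was not tested, and its ratio of 1.18 had a counting interval of 0.299 to 4.87, so no difference was detectable at this depth. Tlr3 (ENSMUSG00000031639, mm10 chromosome 8, 45395665 to 45411080) was listed at 0 in all 6 libraries. A floor of 3 counts over all libraries allows Tlr3 up to 0.0329 CPM. These intervals and floors cover counting error only.

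B cells and plasmacytoid dendritic cells are known to express Tlr7 and Tlr9, so their markers are given beside these counts. Of 12 B cell markers 8 were tested and 6 were higher with idelalisib, against 22.2% of all tested genes. However, 4 of these 6 (Cd79a, Cd79b, Bank1 and Blk) passed the low-count filter only through the idelalisib libraries. The other 4 tested markers held 2 higher (Pax5 and Cd22) and 0 lower. The summed level of all 12 markers was 24.5 to 24.9 CPM in control and 29.2 to 37.0 CPM in idelalisib libraries. Ebf1, which was not called, held 15.4 ± 0.128 and 14.7 ± 2.70 CPM of that sum (SD, n = 3). Cd79a and Cd79b, the signalling chains of the B cell receptor, went from 0.750 ± 0.216 to 1.87 ± 0.748 CPM and from 0.689 ± 0.140 to 1.84 ± 0.436 CPM (SD, n = 3). Ms4a1, a B cell surface protein gene, had 28 counts over the control and 24 over the idelalisib libraries. Of 7 plasmacytoid dendritic cell markers 3 were tested and 1 was higher, against 22.2% of all tested genes. Summed levels were 17.7 to 20.9 CPM in control and 19.4 to 28.8 CPM in idelalisib libraries. Most of this sum came from Pacsin1, which was not called, at 16.3 ± 1.38 and 19.5 ± 4.41 CPM (SD, n = 3). Siglech and Klk1 of that list were at 0 in all libraries.

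Of the 7 markers of conventional dendritic cells 2 were tested and 0 were called, against 44.6% of all tested genes. Clec10a was at 0. The summed levels of the 7 markers were 11.6 to 12.9 CPM in control and 8.42 to 11.8 CPM in idelalisib libraries. Zbtb46 made up most of this sum, at 10.8 ± 1.32 and 7.76 ± 2.00 CPM (SD, n = 3). None of the 11 monocyte and macrophage markers had enough counts to be tested. Together they had 9 to 17 counts per control and 21 to 30 per idelalisib library, and C1qa, C1qc and Spic were at 0. Of 7 NK cell markers 3 were tested and 2 were higher, against 22.2% of all tested genes. Summed levels were 15.7 to 20.0 CPM in control and 24.2 to 28.8 CPM in idelalisib libraries. Eomes, a transcription factor that T cells also use, was higher, at 2.88 ± 0.316 and 9.30 ± 1.88 CPM. The receptor gene Klrk1 was also higher, at 11.7 ± 1.77 and 15.2 ± 0.840 CPM (SD, n = 3). Ncr1 was at 0 in all libraries.

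Of 7 granulocyte markers 2 were tested and 2 were higher, against 22.2% of all tested genes. Summed levels were 48.4 to 50.1 CPM in control and 119.2 to 148.0 CPM in idelalisib libraries. Ly6g, a surface protein gene used to mark neutrophils, was at 38.8 ± 2.77 and 116.7 ± 11.2 CPM, and the chemokine receptor gene Cxcr2 at 10.3 ± 1.91 and 18.4 ± 3.83 CPM (SD, n = 3). The granule protein genes S100a8 and S100a9 had 0 counts over the control libraries and 4 and 1 over the idelalisib libraries. Of 6 erythroid markers 2 were tested and 0 were called, against 44.6% of all tested genes. The part of these cells in the results for Tlr7 and the other sensors was not tested.

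Compared per length, the order of the 10 genes changed between groups. The unit is RPKM, the CPM divided by the deposited gene length in kilobases. The order between genes therefore rests on these lengths, which were not checked against the transcripts present in these cells. In control cultures Ikbke was highest at 26.1 ± 1.47 RPKM (SD, n = 3), followed by Tbk1 at 16.1 ± 0.718, Mavs at 10.7 ± 0.893, Dhx58 at 9.23 ± 1.41, Zbp1 at 5.95 ± 1.24, Ddx58 at 3.77 ± 0.160 and Ifih1 at 2.21 ± 0.224 RPKM. Of these neighbours only Mavs and Dhx58 overlapped. Tlr7 was at 0.0762 ± 0.0520 and Tlr9 at 0.0343 ± 0.0593 RPKM, which overlapped.

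In idelalisib cultures Zbp1 came first at 33.5 ± 1.53 RPKM, level with percentile 89.8 of all tested genes against percentile 52.0 in control. Ikbke followed at 19.6 ± 3.82, Tbk1 at 14.5 ± 1.65, Dhx58 at 12.9 ± 2.00, Mavs at 11.9 ± 1.16, Ifih1 at 9.56 ± 1.01 and Ddx58 at 6.62 ± 0.374 RPKM (SD, n = 3). The libraries of Ikbke, Tbk1, Dhx58 and Mavs overlapped between neighbours in this order. Those of Zbp1, Ifih1 and Ddx58 did not overlap with their neighbours. Before division by length, Ikbke was above Zbp1 in every idelalisib library, at 176.9 ± 34.4 and 118.3 ± 5.38 CPM (SD, n = 3).

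**Figure D2:**
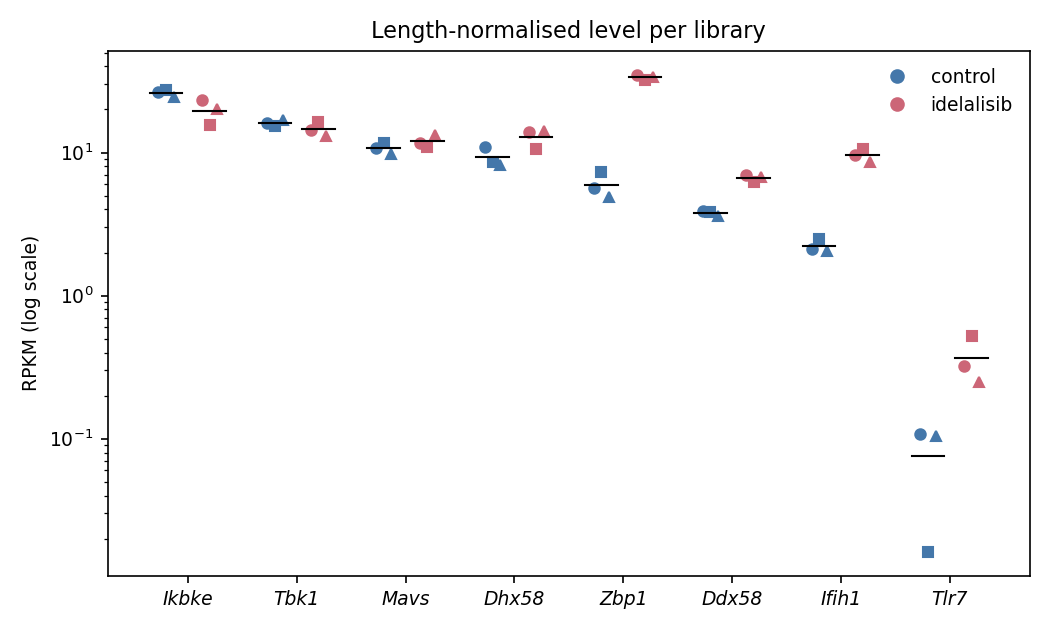
RPKM on a log axis for 8 genes ordered by their control level, with blue for control and red for idelalisib libraries, circles, squares and triangles for replicates 1, 2 and 3, and lines at the group means. Zbp1 moves from 5.95 to 33.5 RPKM and passes Ikbke per length, and Ifih1 moves from below Ddx58 to above it.

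Leaving out a library or changing the processing left Zbp1, Ifih1, Ddx58 and Dhx58 called higher. Tlr7 also stayed called, but it had passed the low-count filter only through its idelalisib libraries. The log2 fold change stayed between 2.37 and 2.66 for Zbp1, 2.04 and 2.27 for Ifih1, 0.77 and 0.97 for Ddx58, 0.41 and 0.64 for Dhx58 and 1.74 and 2.56 for Tlr7 over 15 alternatives. For Tlr7 the value moved most without control replicate 2, the library with 1 count. Ikbke was lower in all 15 and called in 12.

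**Figure D3:**
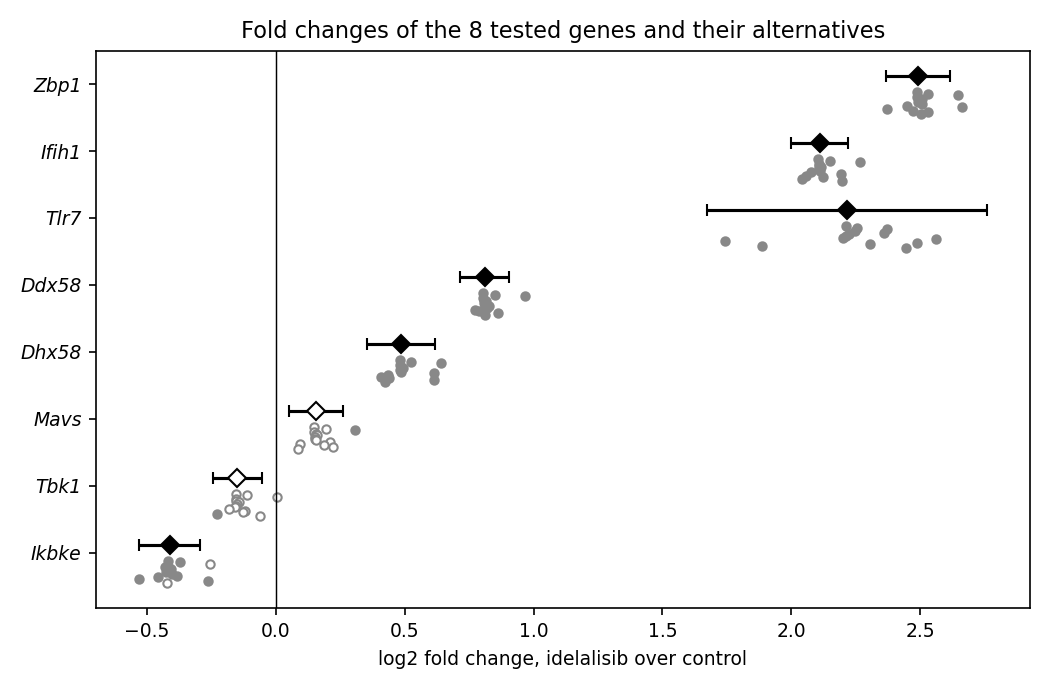
Log2 fold change of the 8 tested genes (idelalisib over control), with black diamonds and bars for the edgeR estimate ± SE and circles for the alternatives that give another fit. Filled symbols passed an adjusted p of 0.05: Mavs and Tbk1 passed in 1 alternative each, and Ikbke missed in 2 of those drawn.

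For each called gene, the protein-coding genes with the nearest profile were found among 11057 candidates averaging at least 1 CPM. Likeness was the Euclidean distance between log2 CPM profiles over the 6 libraries, each centred on its own mean. Nearest to Ifih1 were Trim30a, Samd9l and Slfn8 (distances 0.0897, 0.261 and 0.269), with log2 fold changes of 2.13, 2.13 and 1.96. Nearest to Zbp1 were Oas3, an oligoadenylate synthetase, Slfn1 and Jaml (0.278, 0.284 and 0.371), with log2 fold changes of 2.33, 2.41 and 2.55. Ddx58 was nearest to Kif18b, a mitotic kinesin, Efr3b and Cntd1 (0.0720, 0.0835 and 0.0850). Dhx58 was nearest to Emp1, Alpl and Snupn (0.0929, 0.141 and 0.148). Ikbke was nearest to Zscan2, St3gal1 and Zdhhc2 (0.114, 0.117 and 0.133), and Tlr7 to Kbtbd6, Tgtp2 and Lrp11 at larger distances (1.08, 1.14 and 1.26). These likenesses rest on 6 libraries in 2 groups and are descriptions.

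Irf7 and Fadd were among the partners of the RIG-I-like receptors that rose. Of 21 genes that work with the receptors, MAVS and the kinases, all tested, 8 were higher and 1 was lower. Over all tested genes, 22.2% were higher and 22.4% lower. The median log2 fold change was 0.12 for the partners and 0.01 for all tested genes. Irf7, the interferon regulatory factor that is itself induced by interferon, went from 3.36 ± 0.814 to 28.3 ± 2.73 CPM (log2 fold change 3.07 with an SE of 0.17; adjusted p = 1.98e-08, edgeR). Ddx60, a helicase linked to RIG-I signalling, was at 0.466 ± 0.175 and 7.74 ± 1.23 CPM (SD, n = 3). It is 1 of the 8 and passed the low-count filter only through the idelalisib libraries; the other 20 tested genes held 7 higher and 1 lower, at a median of 0.10. The death-domain adaptor gene Fadd rose from 3.88 ± 0.717 to 9.96 ± 0.914 CPM (SD, n = 3). Irf3, the constitutive counterpart of Irf7 and chosen after its values were seen, was at 53.4 ± 1.22 and 50.4 ± 6.54 CPM (edgeR adjusted p = 0.523).

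Of 10 inhibitors of the RIG-I-like receptor pathway, all tested, 2 were higher and 3 lower, against 22.2% and 22.4% of all tested genes. Their median log2 fold change was 0.01. Tnfaip3, which encodes the ubiquitin-editing enzyme A20, went from 540.6 ± 14.3 to 169.9 ± 9.69 CPM (log2 fold change -1.67 with an SE of 0.08; adjusted p = 5.41e-09, edgeR). Tax1bp1, which encodes a partner of A20, fell from 490.1 ± 6.60 to 324.2 ± 42.3 CPM. Adar, which edits double-stranded RNA and so keeps it from MDA5, rose from 65.5 ± 4.55 to 153.4 ± 2.09 CPM (SD, n = 3).

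Of 21 genes of endosomal Toll-like receptor transport and signalling 19 were tested. Among these 6 were higher and 3 lower, against 22.2% and 22.4% of all tested genes (median log2 fold change 0.08). Beside Irf7, Irak3, an inhibitory kinase-like protein, rose from 1.05 ± 0.0855 to 2.31 ± 1.19 CPM. Ticam1, the adaptor of TLR3, fell from 49.0 ± 2.88 to 28.3 ± 3.13 CPM (SD, n = 3). Chosen after their values were seen, Myd88, the adaptor of TLR7 and TLR9, had a log2 fold change of 0.55 (edgeR adjusted p = 0.000230), and the chaperone Unc93b1 one of 0.26 (edgeR adjusted p = 0.105). Tlr8 was listed at 0 in every library.

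Toll-like receptors of the cell surface and related receptors were higher where they could be tested. Of 7 genes 4 were tested and 4 were higher, against 22.2% of all tested genes (median log2 fold change 1.20). Tlr1, a partner of TLR2 in lipopeptide recognition, rose from 9.48 ± 1.63 to 22.2 ± 1.99 CPM (log2 fold change 1.22 with an SE of 0.15; adjusted p = 1.83e-05, edgeR). Tlr2 and Tlr6 rose from 1.19 ± 0.690 to 2.71 ± 0.351 CPM and from 2.81 ± 0.765 to 4.50 ± 0.520 CPM (SD, n = 3). The count was 2 without control replicate 3 or without idelalisib replicate 1. Tlr12, chosen after its values were seen, had 6, 6 and 0 counts in control and 13, 20 and 27 in idelalisib cultures. It is 1 of the 4 and passed the low-count filter only through the idelalisib libraries. Without Tlr12, 3 of 3 tested genes were higher, at a median log2 fold change of 1.18.

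Among genes of cytosolic DNA sensing, 5 of 15 were called higher and 1 lower, against 22.2% and 22.4% of all tested genes. Their median log2 fold change was 0.16. Ifi204, an interferon-inducible gene, is 1 of the 5, with 0, 0 and 3 counts in control and 24, 32 and 25 in idelalisib cultures. It passed the low-count filter only through the idelalisib libraries. The other 14 tested genes held 4 higher and 1 lower, at a median log2 fold change of 0.15. Mb21d1, which encodes the DNA sensor cGAS, rose from 9.03 ± 0.785 to 16.6 ± 1.84 CPM (log2 fold change 0.88 with an SE of 0.14; adjusted p = 0.000249, edgeR). Trim56, a ubiquitin ligase, rose from 72.1 ± 4.34 to 141.6 ± 21.4 CPM, and Zcchc3, a cofactor of cGAS, from 2.00 ± 0.477 to 5.67 ± 0.610 CPM (SD, n = 3). Chosen after their values were seen, Tmem173, which encodes the adaptor STING, was at 210.4 ± 12.6 and 234.6 ± 27.2 CPM (edgeR adjusted p = 0.184), and Aim2, the inflammasome DNA sensor, fell by 0.61 on the log2 scale.

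Enzymes that remove or edit nucleic acids held 4 higher and 1 lower of 11 tested, of 14 in the list (median log2 fold change 0.21). The shares over all tested genes were 22.2% and 22.4%. Beside Adar, Samhd1, a nucleotide triphosphohydrolase, rose from 1045 ± 40.6 to 1480 ± 78.3 CPM, and Dnase2a, a lysosomal nuclease, from 5.30 ± 1.05 to 7.93 ± 1.51 CPM (SD, n = 3). Trex1 was listed at 0 in every library. Whether other genes overlap Trex1 was not examined, so this does not show that it was silent.

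Of 11 partners of ZBP1 in cell death 10 were tested. Of these, 7 were called higher and 1 lower, against 22.2% and 22.4% of all tested genes. The median log2 fold change was 0.40, and 5 to 9 were called higher over the alternatives. Fadd is given above, and Casp1, the inflammatory caspase, rose from 2.88 ± 0.144 to 5.68 ± 0.553 CPM. Gsdme, a pore-forming gasdermin, fell from 13.2 ± 0.812 to 6.83 ± 0.438 CPM (SD, n = 3). Chosen after their values were seen, Ripk3, the kinase that ZBP1 engages, was at 59.6 ± 2.65 and 64.8 ± 7.82 CPM (edgeR adjusted p = 0.331), and its substrate gene Mlkl had a log2 fold change of 0.39 (edgeR adjusted p = 0.0387).

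**Figure D4:**
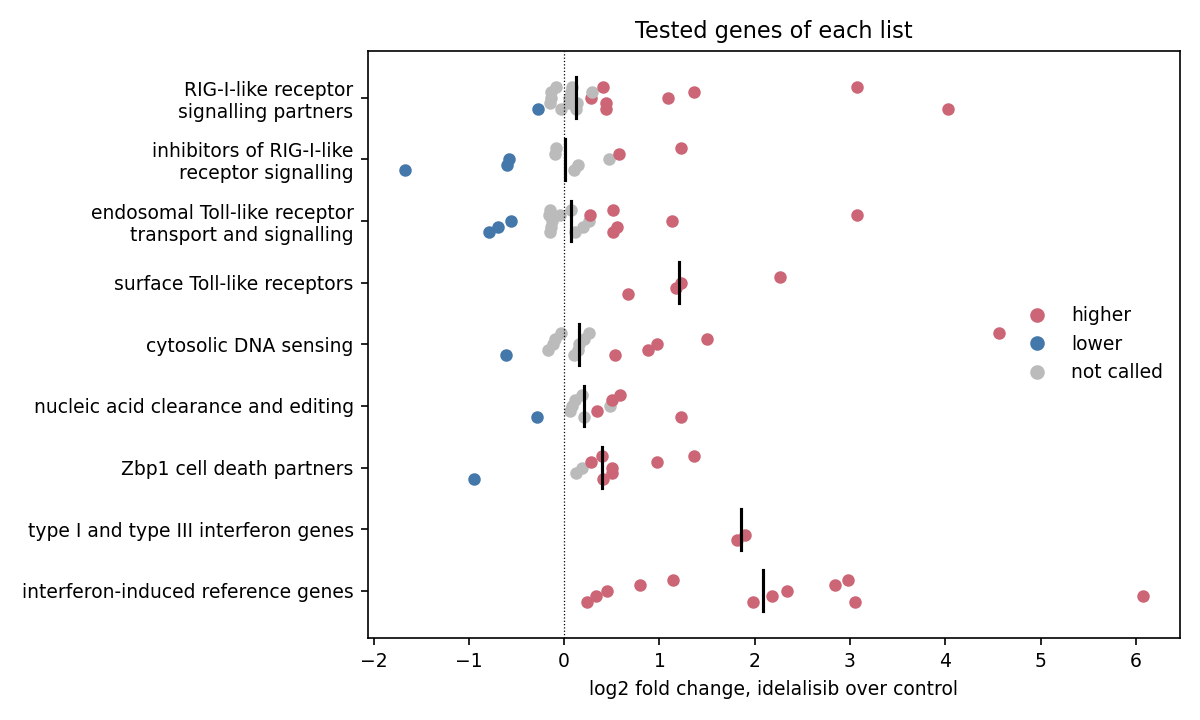
Log2 fold change (idelalisib over control) of every tested gene in 9 lists, with red for higher, blue for lower and grey for genes that did not pass, and a black bar at each list's median. The medians lie between 0.01 and 0.40 for the sensing, clearance and cell death lists. They lie above 1 for surface Toll-like receptors, interferon genes and the interferon-induced reference genes. Of those drawn, 2 of 2 interferon genes, 4 of 12 reference genes, Tlr12, Ddx60, Ifi204 and Dnase1 were tested only through their idelalisib libraries. Without these the medians are 0.97 for the reference genes and 1.18 for surface Toll-like receptors, and no interferon gene is left.

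Interferon genes, the known output of these sensors, had few counts. Of 19 type I and type III genes 7 had any count and 2 were tested. Ifnb1 had 0, 1 and 0 counts in control and 2, 0 and 1 in idelalisib libraries. The interferon alpha genes had 0 counts over the control and 14 over the idelalisib libraries, from Ifna4 with 9, Ifna2 with 4 and Ifna1 with 1. Over idelalisib replicates 1, 2 and 3, Ifna4 had 2, 1 and 6 counts and Ifna2 had 0, 1 and 3. The Ifna1 count was in replicate 3, which held most of the 14. Ifnk had 8 counts over the control and 9 over the idelalisib libraries. The type III genes Ifnl2 and Ifnl3 were called higher, with 13, 11 and 2 against 27, 17 and 57 counts and 7, 10 and 6 against 29, 14 and 42 counts (log2 fold changes 1.90 and 1.82, edgeR adjusted p = 0.00872 and 0.00409). Both passed the low-count filter only through the idelalisib libraries, so a difference was built into their being tested. These close paralogs may share reads, so the division between them is uncertain. Without idelalisib replicate 3 only 1 of the pair was called.

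Beside these low interferon counts, the 12 interferon-induced reference genes were all called higher (median log2 fold change 2.08). Of these, 4 (Ifit3, Rsad2, Mx1 and Oas2) passed the low-count filter only through the idelalisib libraries, and the other 8 had a median log2 fold change of 0.97. Mx1 was at 0.182 ± 0.113 and 12.5 ± 2.51 CPM and Rsad2 at 0.993 ± 0.516 and 8.33 ± 0.728 CPM, and Mx2 rose from 2.54 ± 0.286 to 20.0 ± 2.27 CPM (SD, n = 3). The count was 10 to 12 over the alternatives.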

How the data were processed

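The deposited values are raw read counts per gene made by the authors, 1 column per library, for 3 control and 3 idelalisib libraries. The submitters' processing notes name fastp, HISAT2 2.0.5, featureCounts 1.5.0-p3 and the build mm10. No source used here gives the strand setting, the treatment of multi-mapped reads or the annotation release, so reads of genes that overlap on opposite strands could be mixed. Of the 50-base words in the transcripts (GENCODE M21) of each tested gene at most 2.9% occurred in other genes.

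Columns were matched to samples by library name. Genes were filtered with filterByExpr (minimum count 10, minimum total 15), which left 14530, scaled with TMM and fitted by group alone with the robust quasi-likelihood F test of edgeR 4.0.16 (R 4.3.3). P-values were Benjamini-Hochberg adjusted over all tested genes and called under 0.05. SEs derive from the fold change and F statistic. The scripts were tested in 3 simulations with 200 changed genes among 14530. Changes of 1.5-, 2- and 4-fold were called in the right direction in 51.2%, 77.4% and 98.5% of cases. Among the calls 7% were false. In the data 44.6% of genes were called, far more than were changed in the simulations, so these shares may not carry over.

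The 10 genes and the lists were chosen with earlier results of these data known. In each list the 3 called genes with the largest change averaging at least 1 CPM are named, filled up by the smallest p. Likeness used log2 CPM with a prior count of 1. Chi-square statistics per degree of freedom between replicates ranged from 4.63 to 18.2, so no library was a duplicate. Alternatives were RLE, upper-quartile and library-size scaling, DESeq2 1.42.0, limma-voom (limma 3.58.1), other filters, an adjusted p under 0.01, a replicate block and leaving out each library.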

Additional observations from a re-analysis of the deposited data

How the results depend on the processing

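The count of 5 higher genes among the sensors, which includes Tlr7, was 5 or 6 in all 15 alternatives. The count of 1 lower gene was 0 when scaled by library size alone and at an adjusted p under 0.01, and 0 to 2 when each library was left out in turn. Scaled by library size alone, receptor partners had 0 lower genes, receptor inhibitors 5 higher, DNA sensing genes 9 higher and clearance genes 0 lower. Clearance genes also had 0 lower without a filter beyond 1 count and at an adjusted p under 0.01, where surface Toll-like receptors had 2 higher. When libraries were left out in turn, lower receptor partners numbered 1 to 2, lower endosomal genes 3 to 5, higher surface receptors 2 to 4, lower clearance genes 0 to 1 and higher interferon genes 1 to 2. The log2 ratio of Ikbke to Tbk1 ranged from -0.41 to -0.03. The log2 fold change of Tbk1 turned from -0.15 to 0.0061 when scaled by library size alone, not called in either case. The causes were not tested.

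Same-numbered cultures did not deviate together (correlations 0.07, -0.13 and -0.09), so the numbers were not taken as pairs; a replicate block gave 5 higher and 1 lower among the sensors, and 2910 higher and 3051 lower genes against 3223 and 3256 over all genes. Not every library correlated best with its own number. Depth limits Tlr3, Tlr7, Tlr9 and the interferon genes, at 14.0 to 16.7 reads per CPM.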
